A study of Rattus norvegicus with 7 samples.

Results

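The transcription factors Six3, Six6, Rax, Nkx2-1, Sim1, Otp, Nr5a1, Fezf1, Isl1 and Lhx1, which pattern the hypothalamus, were followed across 7 RNA sequencing libraries of rat brain. They were chosen by symbol, and all 10 were found in both deposited tables, among 15805 symbols that the tables share. The libraries came from male Sprague Dawley rats that were 2 months old at the start and then received, for 6 weeks, a diet with DHA, the omega-3 fatty acid docosahexaenoic acid. The tissue was hippocampus in 4 libraries and hypothalamus in 3. All 7 libraries shared the DHA diet. Rats without the DHA diet are not analysed here, and nothing is said of an effect of the diet. The labels number the replicates of each tissue but do not say whether libraries with the same number came from the same animal.

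During development the hypothalamus is laid out by transcription factors that divide the ventral forebrain into fields and then specify the neurons of each nucleus. Six3, Six6 and Rax, homeobox genes that also set up the eye field, act early in the anterior forebrain, and Rax persists in tanycytes, the glial cells that line the floor of the ventricle. Nkx2-1 is a homeobox gene of the ventral field. Sim1, a basic helix-loop-helix gene of the PAS family, and Otp, a homeobox gene, are required for the neuroendocrine neurons that make oxytocin, vasopressin and other releasing peptides. Nr5a1, which encodes the nuclear receptor steroidogenic factor 1, and the zinc finger gene Fezf1 mark the ventromedial nucleus. The LIM homeobox genes Isl1 and Lhx1 are known for arcuate neurons and for the suprachiasmatic clock, respectively. The hippocampus belongs to the telencephalon, which is built by a different set of factors.

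All 10 genes had an entry in the RefSeq promoter sequences of the rat assembly GRCr8, as the 250 bases upstream of the start used there. That start is not always the outer end of the gene. For Sim1, Six6, Fezf1 and Nkx2-1 the window lies inside the RefSeq span of the gene, and for Nr5a1 and Six3 in part. These windows were examined because developmental transcription factor genes often have promoters rich in CpG, the dinucleotide that DNA methylation acts on. Of the 10, 9 had a higher ratio of observed to expected CpG than the median of 33469 rat promoters. The median ratio was 0.744 for the 10 genes and 0.383 for all promoters, and the median number of CpG was 17.5 against 5. Sim1 had the most CpG, with 22, and Nr5a1 the fewest, with 6 and a ratio of 0.302. Lhx1, whose highest locus was the most abundant of the 10 in hypothalamus, had 18. Its locus on the side of the gene, described further on, was far lower. These 3 promoters are printed 5′ to 3′ on the strand of the gene with each CpG in capitals, to show the richest, the sparsest and that of the gene with the highest locus. They are chr20:55410327-55410576 on the plus strand for Sim1, chr10:69901077-69901326 on the minus strand for Lhx1 and chr3:42896047-42896296 on the minus strand for Nr5a1.
Sim1: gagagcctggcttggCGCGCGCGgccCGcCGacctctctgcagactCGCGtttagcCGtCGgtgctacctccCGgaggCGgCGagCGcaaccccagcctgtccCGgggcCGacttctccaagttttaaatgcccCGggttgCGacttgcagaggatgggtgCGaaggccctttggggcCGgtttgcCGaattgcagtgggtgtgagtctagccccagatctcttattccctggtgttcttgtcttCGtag
Lhx1: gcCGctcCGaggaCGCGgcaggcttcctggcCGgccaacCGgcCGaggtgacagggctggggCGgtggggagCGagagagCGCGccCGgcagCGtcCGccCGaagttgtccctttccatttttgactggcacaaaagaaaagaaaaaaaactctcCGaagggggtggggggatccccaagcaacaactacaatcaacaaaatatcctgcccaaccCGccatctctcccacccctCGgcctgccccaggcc
Nr5a1: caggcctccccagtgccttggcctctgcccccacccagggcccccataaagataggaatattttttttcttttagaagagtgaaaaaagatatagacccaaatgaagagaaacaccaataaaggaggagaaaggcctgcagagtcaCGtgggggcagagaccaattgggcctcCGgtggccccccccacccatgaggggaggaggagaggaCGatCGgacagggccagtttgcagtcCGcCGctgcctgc

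The same windows were searched on both strands for 6 short letter motifs. ACGTG, the core bound by dimers of bHLH-PAS proteins such as Sim1, was found in 2 of the 10 promoters, against 16.6% of all promoters. In Nr5a1 it lies as the palindrome CACGTG, which matches on both strands and begins 106 bases before the start. In Nkx2-1 it begins 141 bases before the start. CAAGTG, a core of NK2 homeodomain proteins such as Nkx2-1, was found once, in reverse and 40 bases before the start of Rax, and is held by 11.7% of all promoters. The homeodomain palindrome TAATTA, the steroidogenic factor 1 site AAGGTCA, the core TGATAC of Six-family proteins and the TATA box TATAAA were not found in these 10 windows, and 4.86%, 3.99%, 4.98% and 12.9% of all promoters hold them. A match is a description of the letters only.

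Levels are given as the FPKM that the authors deposited, a fragment count divided by transcript length and by library size. They summed to between 370020 and 391349 per hippocampus library and to between 443335 and 471484 per hypothalamus library, and the depth in fragments is unknown. Each tissue has a table of its own, and no source states that the tables were normalized together, so tissue and table cannot be told apart and no test was made between them. Where the replicates are not separate animals, their spread may be technical. The tissue labels were checked against transcription factors of the telencephalon, of which 11 of 12 compared lay higher in hippocampus by the call explained further on, against 14.5% of all symbols, led by Neurod6 (−6.06 in log2), Neurod2 (−5.25) and Bcl11b (−4.49), and against the peptide genes described last. Choroid plexus genes, 9 in both tables, summed to between 35.4 and 6024 FPKM in hippocampus and between 36.3 and 74.6 FPKM in hypothalamus. None of them was called, and Otx2 was listed at 0 in all 7 libraries. In bulk tissue, fewer cells of a type and less RNA per cell cannot be told apart.

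In hypothalamus all 10 genes were detected in every library. Mean levels ran from 1.34 FPKM for Sim1 to 41.3 FPKM for Lhx1, which is from percentile 5.87 to percentile 81.7 of the symbols compared. In hippocampus none reached a mean of 1 FPKM, and Rax, Otp and Nr5a1 were listed at 0 in all 4 libraries. An exact 0 can be a failed estimate: Npy, a peptide gene known from neurons of both tissues, was listed at 0 in all 7 libraries. Of 703 symbols that reached 1 FPKM in hypothalamus only, 3.84% were listed at 0 throughout hippocampus.

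**Figure D1:**
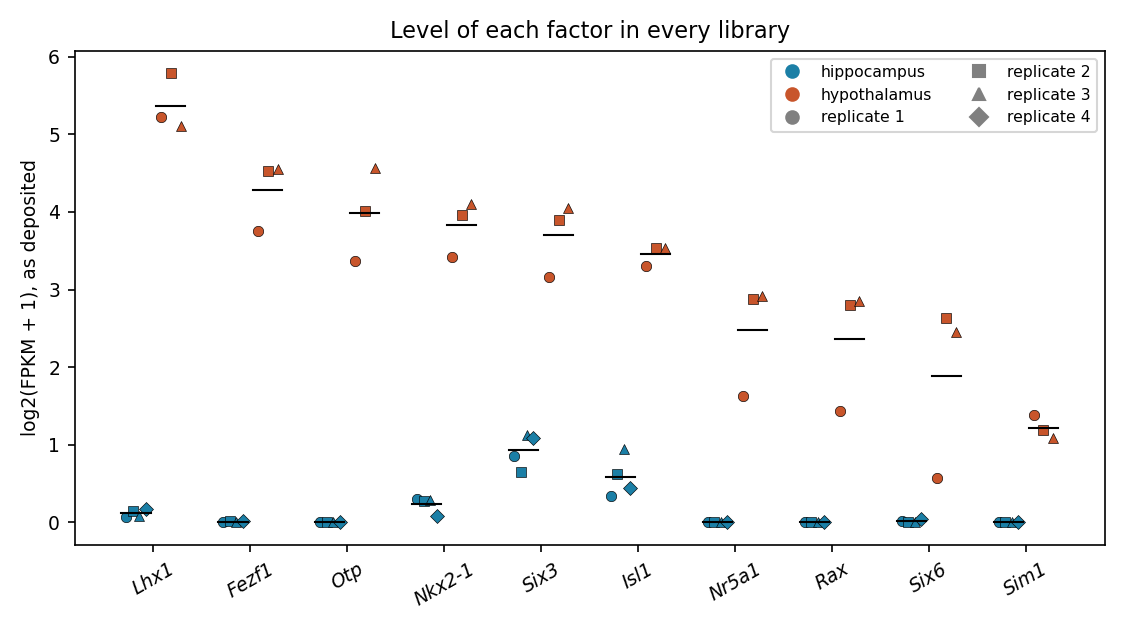
Level of each of the 10 factors in every library, as log2(FPKM + 1) of the deposited values; each point is a library, marked by replicate number and coloured by tissue, and black bars are means over 4 hippocampus or 3 hypothalamus libraries. Every hypothalamus point lies above every hippocampus point of the same gene, and Six3 is the highest of the 10 in hippocampus at a mean of 0.922 FPKM.

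Among the early anterior genes, Six3 read 7.96, 14.0 and 15.5 FPKM in hypothalamus replicates 1 to 3. In hippocampus replicates 1 to 4 it read 0.803, 0.575, 1.19 and 1.12 FPKM. The means were 12.5 ± 3.98 FPKM (SD, n = 3) and 0.922 ± 0.286 FPKM (SD, n = 4), so Six3 was low but present in all hippocampus libraries. Rax, which encodes a paired-type homeodomain protein, read 1.70, 5.97 and 6.21 FPKM in hypothalamus and was listed at 0 in hippocampus. Replicate 1 was the low library for both genes. Six6, a close relative of Six3, read 0.490, 5.22 and 4.46 FPKM at its highest locus in hypothalamus, and 0.0104, 0, 0.00662 and 0.0346 FPKM in hippocampus. Here too replicate 1 of hypothalamus stood low, though above all hippocampus libraries.

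Nkx2-1 read 9.72, 14.6 and 16.2 FPKM in hypothalamus, a mean of 13.5 ± 3.39 FPKM (SD, n = 3). In hippocampus it read 0.230, 0.215, 0.225 and 0.0619 FPKM, with replicate 4 below the others. The mean there was 0.183 ± 0.0809 FPKM (SD, n = 4). The groups are far apart, and the lowest hypothalamus library lies above the highest hippocampus library. In GRCr8 a long noncoding RNA gene, LOC102552092, overlaps Nkx2-1, and since no strand setting is stated, fragments of overlapping genes may not be separated.

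Of the neuroendocrine pair, Otp was the more abundant. It read 9.36, 15.2 and 22.7 FPKM in hypothalamus and was listed at 0 in hippocampus. Its libraries differed by 2.43 times from lowest to highest. Sim1 was the lowest of the 10 genes, at 1.61, 1.28 and 1.13 FPKM in hypothalamus. It was the only gene of the 10 with its highest value in replicate 1. In hippocampus Sim1 was listed at 0 in replicates 1 and 2 and read 0.00680 and 0.00444 FPKM in replicates 3 and 4. The peptide genes of these neurons did not share a low library: Oxt, which encodes oxytocin, read 2966, 1024 and 2000 FPKM, and Trh, which encodes thyrotropin-releasing hormone, read 75.5, 108 and 145 FPKM in hypothalamus replicates 1 to 3. The order of the libraries for Trh is that of Otp.

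In the ventromedial pair, Fezf1 read 12.5, 22.0 and 22.5 FPKM in hypothalamus at its highest locus. In hippocampus it was listed at 0 in replicates 1 and 3 and read 0.0170 and 0.0147 FPKM in replicates 2 and 4. Nr5a1 read 2.09, 6.37 and 6.58 FPKM in hypothalamus and was listed at 0 in hippocampus. Both genes were lowest in hypothalamus replicate 1, with replicates 2 and 3 close together. The mean of replicates 2 and 3 was 3.10 times the value of replicate 1 for Nr5a1 and 1.78 times for Fezf1. In GRCr8 the protein-coding gene LOC134486742 overlaps Fezf1.

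Isl1 varied little, at 8.91, 10.6 and 10.6 FPKM in hypothalamus, a coefficient of variation of 9.86%. In hippocampus it read 0.261, 0.544, 0.934 and 0.358 FPKM and was detected in all 4 libraries. Lhx1 read 36.3, 54.2 and 33.4 FPKM at its highest locus in hypothalamus, and 0.0481, 0.109, 0.0578 and 0.132 FPKM in hippocampus. It was highest in replicate 2, unlike most of the others. Lhx5, a LIM homeobox gene related to Lhx1, read 7.48, 4.51 and 5.93 FPKM in hypothalamus and between 0.0442 and 0.258 FPKM in hippocampus.

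FPKM is per length, so the genes can be ordered within hypothalamus. The order from the top was Lhx1, Fezf1, Otp, Nkx2-1, Six3, Isl1, Nr5a1, Rax, Six6 and Sim1. Only 2 of the neighbouring pairs had ranges that did not overlap over the 3 libraries, namely Lhx1 above Fezf1 and Isl1 above Nr5a1. Fezf1, Otp, Nkx2-1, Six3 and Isl1 form a run from 19.0 to 10.1 FPKM in which each neighbour overlaps the next. Six6 exceeded Sim1 in 2 of 3 libraries and fell below it in replicate 1. The place of Lhx1 depends on which of its loci is taken.

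The hypothalamus table lists Lhx1, Fezf1 and Six6 at 2 loci each, and the other 7 genes at 1. The hippocampus table lists each of the 10 at 1 locus. Row order shows on which side a locus lies: most of the single-locus symbols within 10 rows of it are RefSeq genes of 1 strand. The majority was complete for most loci of the 10 genes and weakest for Sim1, with 7 plus-strand and 3 minus-strand neighbours in hippocampus. That a side is a strand is an inference from this order. The Lhx1 locus with the high values, XLOC_004364, has 6 plus-strand and 1 minus-strand neighbours, while Lhx1 is a minus-strand gene in RefSeq. Its other locus, XLOC_005246, has 2 plus-strand and 11 minus-strand neighbours and read 5.03, 5.79 and 4.16 FPKM, a mean of 4.99 ± 0.817 FPKM (SD, n = 3). The higher locus exceeded it by 7.21, 9.36 and 8.02 times in replicates 1 to 3. The hippocampal Lhx1 locus lies on the side of the gene, with 3 plus-strand and 11 minus-strand neighbours. In GRCr8 a long noncoding RNA gene, LOC102553190, lies 893 bases from Lhx1, and whether its transcripts enter the higher locus was not tested.

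Six6 also had its higher mean on the other side, but not in every library. The other-side locus was 0.279, 2.75 and 2.74 times the same-side locus in replicates 1 to 3, so in replicate 1 it was the lower of the pair. The locus with the higher mean, XLOC_022860, has 1 plus-strand and 16 minus-strand neighbours, while Six6 is a plus-strand gene. The locus on the side of the gene, XLOC_022377, read 1.75, 1.90 and 1.63 FPKM, with a coefficient of variation of 7.71%, against 74.9% at the higher locus. On the side of the gene, then, hypothalamus replicate 1 did not stand low for Six6. For Fezf1 the higher locus, XLOC_019449, is on the side of the gene, and the other, XLOC_018763, read 1.19, 1.30 and 1.78 FPKM. Among 657 symbols of the hypothalamus table with 2 loci on opposite sides, the higher locus lay on the other side from the gene in 149, or 22.7%. Of 509 other-side loci that averaged 1 FPKM or more, replicate 1 was the lowest library in 67.8%.

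**Figure D2:**
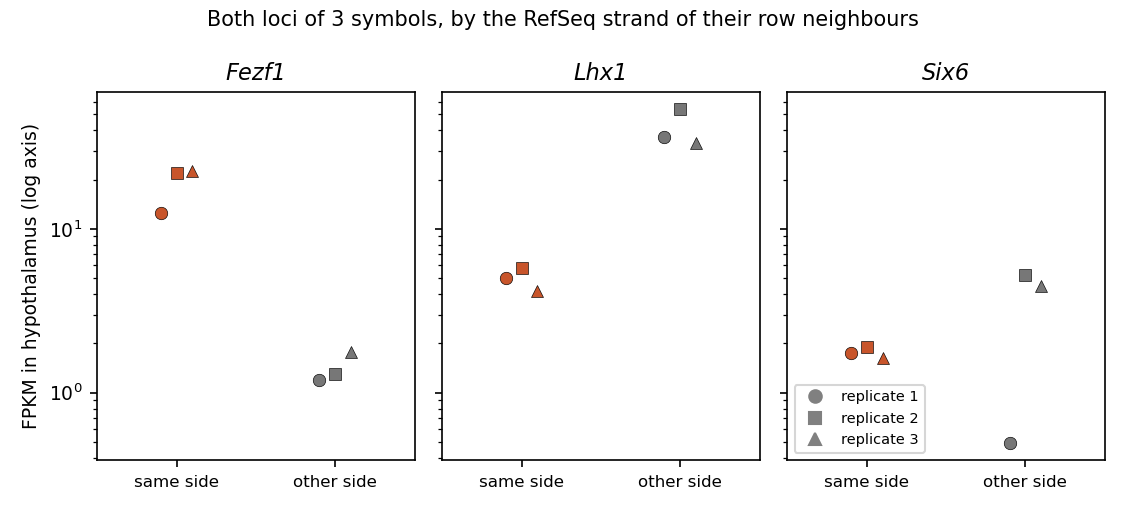
Both hypothalamic loci of Fezf1, Lhx1 and Six6, in FPKM on a log axis; each point is a library, and loci are split by whether their row neighbours lie on the RefSeq strand of the gene (same side, orange) or not (other side, grey). The other-side locus is the higher one for Lhx1 at a mean of 41.3 FPKM against 4.99 FPKM, the lower one for Fezf1, and for Six6 it falls to 0.490 FPKM in replicate 1.

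To set the tissues side by side, the values of a library were rescaled to add up to 1000000 over the shared symbols, and differences were taken between means of log2(value + 1), hypothalamus minus hippocampus. On this scale the change of low genes is understated. A symbol was called when the libraries of the 2 tissues did not overlap and the difference was at least 2-fold. All 10 genes were called higher in hypothalamus, a call that 13.4% of 10736 symbols received. Without the fold, 24.4% of symbols lay higher in hypothalamus with no overlap. Each of the 10 passed the filter of 1 FPKM on average through hypothalamus only, and so had to differ. Of the 703 symbols that passed in that way, 57.6% were called and 70.3% had no overlap, so the count of 10 is not read as support. The median difference was 3.46 for the 10 genes, 1.32 for those 703 symbols and −0.05 for all symbols compared.

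The largest difference at the loci with the highest mean was that of Lhx1, at 6.26, which ranked 14 of 10736 symbols. It sets a hypothalamic locus on the other side from the gene against a hippocampal locus on the side of the gene. Fezf1 followed at 5.43 (rank 23), Otp at 5.16 (rank 26) and Nkx2-1 at 4.40 (rank 42). These 4 genes lay within the highest 0.391% of symbols. Nr5a1 had a difference of 3.53, Rax of 3.39, Isl1 of 3.34 and Six3 of 3.02. Six6 stood at 2.73 with an SD of 1.45 among its hypothalamus libraries, the widest of the 10. Sim1 had the smallest difference on this scale, 2.03 at rank 452, with an SD of 0.23 among hypothalamus libraries and 0.01 among hippocampus libraries.

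With the locus on the side of the gene, chosen after seeing the data, the difference of Lhx1 was 3.34, the 7th of the 10 in place of the first, and that of Six6 was 2.30. Both genes were still called. The order also turned with the pseudocount: with 0.1, Fezf1 (8.48) and Otp (8.44) exceeded Lhx1 (8.14), and Six3 (3.41) and Isl1 (4.02) lay below Sim1 (4.89). With a pseudocount of 5 the difference of Sim1 was 0.70 and it was not called, which left 9 genes.

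**Figure D3:**
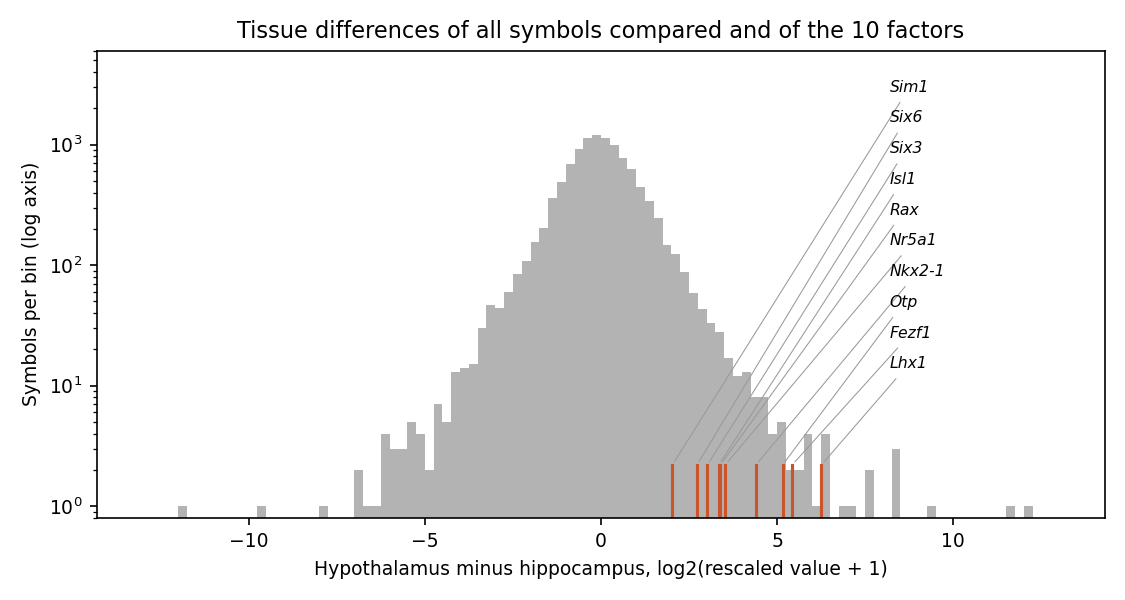
Distribution of the difference between tissues over the 10736 symbols compared, in log2(rescaled value + 1), with the number of symbols per bin on a log axis; orange ticks mark the 10 factors. They lie between 2.03 for Sim1 and 6.26 for Lhx1, on the side of hypothalamus, while the median of all symbols is −0.05.

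At the loci with the highest mean, 8 of the 10 factors varied more between the hypothalamus libraries than most genes of their level. The SD of log2(FPKM + 1) over the 3 libraries was 0.80 for Rax, 0.74 for Nr5a1 and 0.60 for Otp. These lie at percentiles 92, 90 and 92.5 of the 200 loci nearest in mean. Isl1 and Sim1 lay low instead, at 0.13 and 0.15, percentiles 21 and 25.5. The Six6 locus on the side of the gene lay at percentile 9, and the higher one at percentile 96. Lhx1 lay at percentile 35 on the side of the gene and 77 at the higher locus, so with the loci on that side 6 of the 10 were above the middle. The median over the loci used was 0.46, against 0.25 for all 11483 loci of at least 1 FPKM.

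The spread had a shared form. Replicate 1 was the lowest library for 8 of the 10 genes, all except Lhx1 and Sim1, and for 6 of the 7 genes with a single locus. Six6 counts here by its other-side locus, and on the side of the gene its lowest library was replicate 3. Replicate 1 also stood apart in the spacing of low FPKM values in both tissues: at most 3.66% of low loci shared 1 ratio in pairs with it, against 19.5% to 25.0% in pairs without it. The part of this in the low values was not tested. Over all 11483 loci replicate 1 was lowest in 37.6%, and over loci of single-locus symbols in 35.7%. It was also the highest library at 4949 of the 11483 loci, against 2375 for replicate 2 and 4159 for replicate 3. The median difference of replicate 1 from the mean of the other 2 libraries was −0.80 over the 10 genes and 0.03 over all loci, in log2(FPKM + 1). It was −1.39 for Rax, −1.27 for Nr5a1 and −0.92 for Otp, and 0.25 for Sim1. Replicates 2 and 3 differed little for Nr5a1, Fezf1, Rax and Isl1, by at most 0.05 on this scale.

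Marker genes of tissue that adjoins the hypothalamus also differed between these libraries. Of 11 pituitary genes, 5 passed the filter and all 5 were called higher in hypothalamus. All 5 passed through hypothalamus only, so that count had to lean that way. Their summed level, over all 11, was 104, 329 and 231 FPKM in hypothalamus replicates 1 to 3 and between 1.65 and 2.17 FPKM in hippocampus. Cga, the shared subunit of glycoprotein hormones, read 70.4, 282 and 183 FPKM. Pou1f1, a pituitary transcription factor gene, has 2 loci in hypothalamus and read 25.2, 17.7 and 18.3 FPKM at the one used. Tshb, the thyrotropin subunit gene, had a difference of 3.93. Prl was listed at 0 in all 7 libraries, Gh1 was at most 0.237 FPKM, Fshb at most 0.575 FPKM, and Gnrhr, the receptor gene of pituitary gonadotropes, was under 1 FPKM in every library. Nr5a1, Isl1 and Six6 are known to be expressed in pituitary as well.

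Over all symbols, 13.4% were called higher in hypothalamus and 14.5% higher in hippocampus. In the thalamic list of 7 genes, 3 were called higher in hypothalamus (Gbx2 at 2.11, Tcf7l2 at 1.31 and Lef1 at 1.11) and Plekhg1 higher in hippocampus (−1.58). The list was highest in replicate 1, with sums of 77.0, 43.9 and 29.2 FPKM in hypothalamus replicates 1 to 3 and between 34.4 and 50.5 FPKM in hippocampus. Gbx2, a homeobox gene of the thalamus, read 4.58, 0.531 and 1.57 FPKM. It passed the filter through hypothalamus only and so had to lean that way. Of 6 striatal genes, Drd2 (2.02) and Rgs9 (1.67) were called higher in hypothalamus, and Drd2 passed through hypothalamus only. The 6 genes summed to 63.3, 125 and 122 FPKM in hypothalamus and to between 41.0 and 53.4 FPKM in hippocampus. Striatal neurons are known to express Six3 and Isl1. The part of pituitary, thalamus and striatum in the low values of replicate 1 was not tested.

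The tanycyte list bears on Rax. Of its 9 genes, 8 passed the filter, 4 were called higher in hypothalamus and 2 higher in hippocampus, against the same shares of all symbols. Of the 4, Gpr50, Nes and Adm passed through hypothalamus only and so had to lean that way. Vim, an intermediate filament gene, read 325, 410 and 183 FPKM in hypothalamus, and Gpr50, an orphan receptor gene, read 3.90, 4.04 and 5.81 FPKM. Nes, also an intermediate filament gene, had a difference of 1.58. Dio2, which activates thyroid hormone, and Crym, a thyroid hormone binding protein gene, were the ones higher in hippocampus, at −1.05 and −3.43. The list summed to 366, 475 and 259 FPKM in hypothalamus replicates 1 to 3, so the sum, of which Vim makes up most, was lowest in replicate 3. The mean of log2(FPKM + 1) over its genes was 2.91 in replicate 1 and 3.29 in replicate 2. Replicate 3 lay between them and nearer to replicate 1, whereas Rax was highest in replicate 3. Of the 4 genes called higher in hypothalamus, Vim, Nes and Adm were lowest in replicate 3, and only Gpr50 was lowest in replicate 1. Crym and Dio2, called higher in hippocampus, were also lowest in replicate 1. The list thus did not share the pattern of Rax over the 3 libraries.

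Lhx1 is also known in Cajal-Retzius cells, which persist in the hippocampus. Of 4 listed genes of these cells in both tables, Calb2 (3.37) and Lhx5 (3.35) were called higher in hypothalamus. Reln was called higher in hippocampus, at 19.0 ± 2.78 FPKM (SD, n = 4) there against 8.16 ± 1.34 FPKM (SD, n = 3). These calls went to 13.4% and 14.5% of all symbols. Lhx5 passed the filter through hypothalamus only and so had to lean that way. Lhx1 itself was at most 0.132 FPKM in hippocampus.

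**Figure D4:**
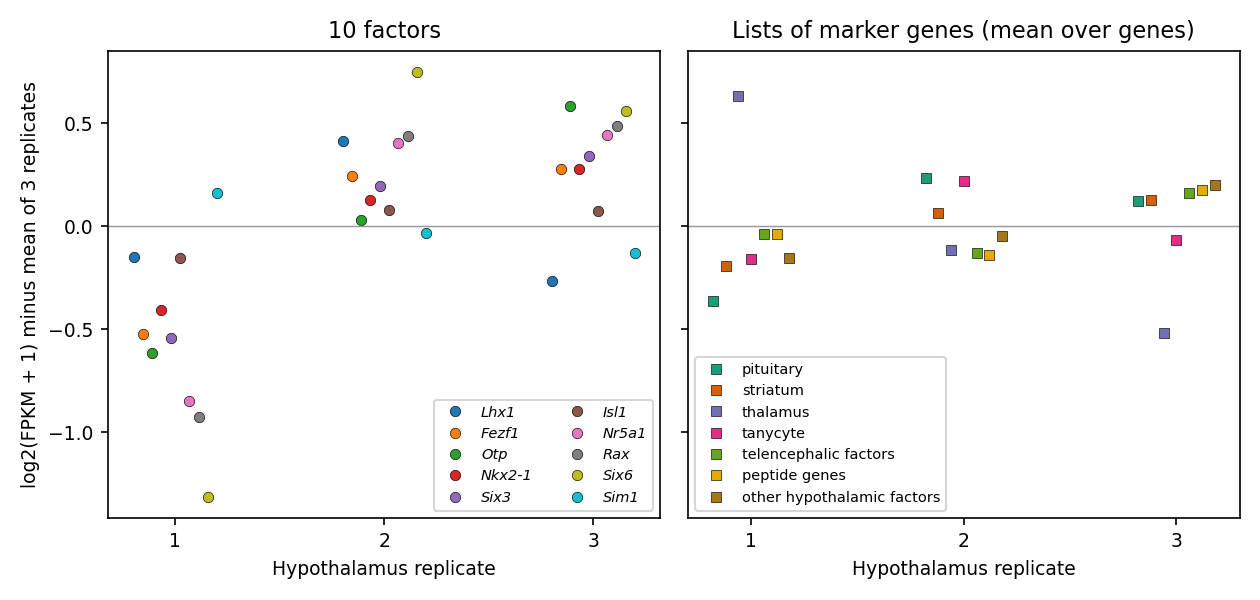
Hypothalamus libraries relative to the mean of the 3, in log2(FPKM + 1); the left panel shows the 10 factors as points, and the right panel shows the mean over the genes of each marker list. In replicate 1, 8 factors are at their lowest and Sim1 is at its highest, while the pituitary list is at its lowest and the thalamic list at its highest.

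Other transcription factors of hypothalamic development were taken from a list of 33 genes, of which 28 were in both tables and 27 passed the filter. Of these, 20 were called higher in hypothalamus, 1 was called higher in hippocampus and 6 were not called, where 13.4% of all symbols were called towards hypothalamus. The median difference was 1.64. Of the 27, 15 passed through hypothalamus only and so had to differ, as with the 57.6% called among all such symbols. Foxb1, at 3.98, and Bsx, at 3.68, were among the largest differences. Foxb1, a forkhead gene of the mammillary hypothalamus, averaged 7.22 ± 1.93 FPKM (SD, n = 3) in hypothalamus and was lowest in replicate 1. Bsx, a homeobox gene of arcuate feeding neurons, read 3.92, 6.50 and 7.11 FPKM.

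Lhx9 was the gene called higher in hippocampus, at 3.33 ± 0.284 FPKM (SD, n = 4) against 1.19 ± 0.796 FPKM (SD, n = 3). Arnt2, the dimer partner of Sim1, was among those not called, with a mean of 25.6 FPKM and an SD of 1.40 over the 4 hippocampus libraries. In hypothalamus its mean was 25.1 ± 5.54 FPKM (SD, n = 3), above that of Sim1 in every library. Pou3f2, which acts after Sim1 and Arnt2 in neuroendocrine neurons, was called higher in hypothalamus, at 13.2 ± 1.52 FPKM (SD, n = 3) against 3.46 ± 1.09 FPKM (SD, n = 4). Nr0b1, a nuclear receptor gene that works with Nr5a1, averaged 1.10 ± 0.0808 FPKM over the 3 hypothalamus libraries (SD) and at most 0.0311 FPKM was read in hippocampus. Unlike Nr5a1, Nr0b1 was not low in replicate 1, where it read 1.19 FPKM against 1.05 FPKM in both other libraries. Arnt2, Pou3f2 and Nr0b1 were named after their values were seen. With a pseudocount of 5, 11 of the list were called higher in hypothalamus in place of 20.

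Of 24 genes for the peptides, transmitter enzymes and a receptor of hypothalamic neurons, 22 passed the filter, 18 were called higher in hypothalamus and none in hippocampus. Over all symbols, 13.4% were called towards hypothalamus. Of the 22, 11 passed through hypothalamus only and so had to differ, where 57.6% of all such symbols were called. Their median difference was 4.19. Oxt and Avp, which encode oxytocin and vasopressin, had the largest differences, at 12.06 and 11.71, and Pmch, the gene of melanin-concentrating hormone, followed at 9.30. The peptide genes summed to 9513, 6792 and 8480 FPKM in hypothalamus replicates 1 to 3, so their sum was highest in the library where 8 of the 10 factors were lowest. Their mean of log2(FPKM + 1), which weights genes equally, was 5.61, 5.50 and 5.82. For the other hypothalamic factors this mean was 2.02, 2.13 and 2.38, lowest in replicate 1.

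**Figure D5:**
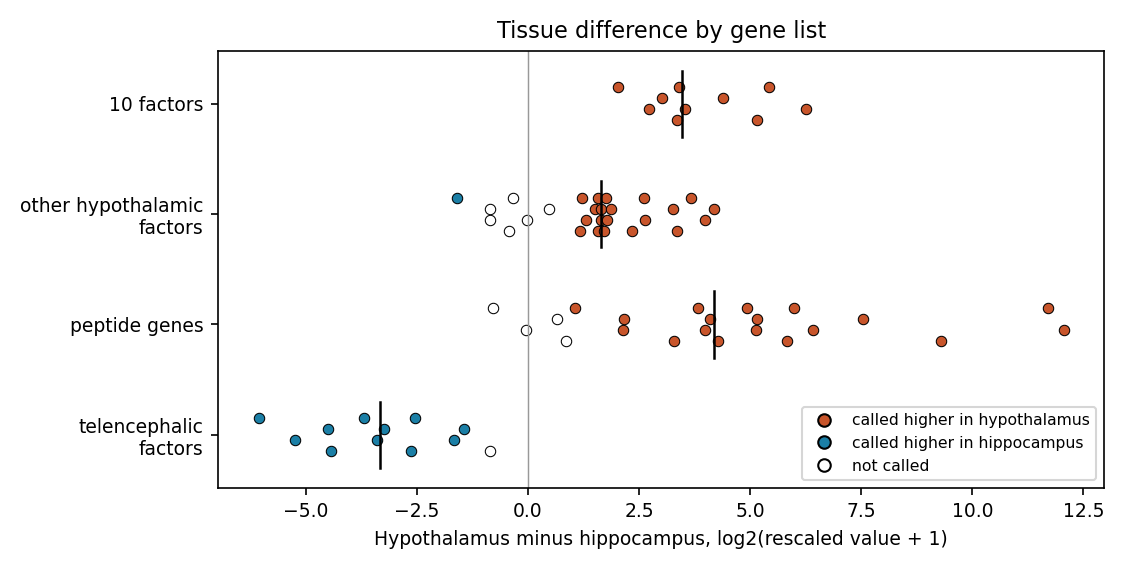
Difference between tissues, hypothalamus minus hippocampus in log2(rescaled value + 1), for the genes of each list that passed the filter; each point is a gene, filled by its call, and black bars are medians. The 10 factors have a median of 3.46, the other hypothalamic factors 1.64, the peptide genes 4.19 and the telencephalic factors −3.32.

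The genes whose pattern over the 7 libraries came nearest to each factor were found by the Euclidean distance between log2 profiles, each centred on its own mean, among 10444 symbols of at least 1 FPKM in hypothalamus. This measure is a description, and the points share the difference between tissues. Rax and Nr5a1 had almost the same profile, at a distance of 0.22, and the same 3 nearest genes outside the 10: Hebp2, Kiss1 and Bsx. Kiss1, the gene of the reproductive peptide kisspeptin, read 3.12, 7.86 and 10.3 FPKM in hypothalamus and was listed at 0 in hippocampus. Otp and Fezf1 were nearest to each other, at 0.54, and both had Asb4 and Hand1 as their nearest genes, with Trh next for Fezf1. Nkx2-1 had Tmem79 (0.47), LOC100192314 (0.50) and then Th (0.54), which encodes tyrosine hydroxylase. Slc18a2, the vesicular monoamine transporter gene, and Mc3r, a melanocortin receptor gene, were the nearest to Isl1, at 0.69 and 0.70. For Six6 the order was LOC690617 (0.29), B9d1 (0.39) and Galp (0.51), a peptide gene of the arcuate nucleus. For Sim1 it was Krtcap2 (0.26), the receptor kinase gene Ret (0.30) and Ppef2 (0.31). Six3 had Eppin as its nearest gene and Lhx1 had Cdca7l, at distances of 0.59 and 0.87. The profiles of Six6 and Lhx1 are those of their other-side loci, and the nearest genes to their same-side loci were not computed.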

How the data were processed

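The data are RNA sequencing libraries of hippocampus (4) and hypothalamus (3) from rats on a DHA diet. Polyadenylated RNA, per the labels' protocols, was the input, cDNA was primed at random positions, and the sequencer was a HiSeq 2000. The submitters' processing notes list TopHat, TopHat2, Bowtie, Bowtie2, Cufflinks and Cuffdiff and the genome build rn5. Versions, annotation and strand setting are not given in the sources used here. The authors deposited FPKM, in 1 table per tissue, with a status word after each value.

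Loci with a status other than OK were left out (86 in hippocampus, 24 in hypothalamus, none of the 10 factors). The locus with the highest mean was used per symbol. Pou1f1, Rgs9, Lhx5, Foxb1, Pou3f2 and Arnt2 also have 2 loci each in hypothalamus, and the side of the one used is not given for them. Symbols of at least 1 FPKM in either tissue were compared on log2(value + 1) after rescaling. A limma test had been planned only if a joint normalization were stated. It is not, so no p-value is given. The members and lists were chosen with earlier results of these data known. Named genes were the 10 factors, the 3 largest called differences per list and direction, genes at 0 in all libraries, and the 3 nearest profiles; 1 gene that the rule names is not reported here. Other genes were named after their values were seen, to describe a list, a peptide or an adjoining tissue. Of the symbols, 83.3% in each table are current RefSeq symbols of GRCr8. Depth is unknown. Precision is limited by the number of libraries. Python 3.11.15, numpy 2.4.6 and pandas 2.3.3 were used.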

Additional observations from a re-analysis of the deposited data

Results flagged for a closer look

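Nkx2-1 in hippocampus had a library that stood apart: replicate 4, at 0.0619 FPKM against 0.215 to 0.230 FPKM, lay 0.907 of the whole range below the nearest of the others. Of 16 results examined in the 4 hippocampus libraries it was the only one above Dixon's critical ratio, and chance gives such a gap in about 5% of groups. All 4 values are far below those of hypothalamus.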

How the results depend on the processing

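All 10 factors were called higher in hypothalamus under every alternative except a pseudocount of 5, where 9 were. Their median difference of 3.46 became 6.15 with a pseudocount of 0.1, 2.13 with a pseudocount of 5, 2.82 with the deposited FPKM, 2.71 with upper quartile scaling and 2.64 with median of ratios scaling, and it ran from 3.28 to 3.96 when single libraries were left out. The median of all symbols moved from −0.05 to 0.21 with FPKM as deposited, where 66.2% of calls were towards hypothalamus in place of 48.0%. Of the other hypothalamic factors, 11 in place of 20 were called with a pseudocount of 5, 16 with median of ratios scaling, where their median fell from 1.64 to 1.05, and 18 to 20 without single libraries. Of the peptide genes, 17 to 18 were called in each of these cases. The median level of the factors in hypothalamus, 11.3 FPKM, was 7.54 FPKM with the loci on the side of the gene, chosen after seeing the data, because Lhx1 then dropped from 41.3 to 4.99 FPKM. It ran from 10.4 to 12.7 FPKM without single libraries. Of the differences of single factors under the alternatives, 117 moved by less than the spread between replicates, 43 moved by more, and none changed sign. No paired analysis was possible because the differences between tissues come from no test to which a block could be added. The numbers were not taken to pair libraries. The correlation of deviations between same-numbered libraries was −0.079, −0.204 and −0.329. Between the other pairs of replicates 1 to 3 it ran from −0.081 to 0.330. Values from so few libraries cannot decide whether same-numbered libraries came from the same animal. Unknown depth limits the low hippocampal values, which carry no interval.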
